A study of Mus musculus with 6 samples.

Results

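The suppressor of cytokine signaling (SOCS) family of the mouse, which is *Cish* and *Socs1* to *Socs7*, was examined in luminal progenitor cells of the mammary gland. The genes were chosen by symbol, and each of the 8 symbols had 1 row among the 18537 known-gene clusters of the deposited values. The family itself was selected on earlier results for these same libraries, in which the normalized counts of *Cish* and *Socs1* were lower in *Robo1*-/- cells, so the genotype differences of the family are given below as a description. RNA-seq was carried out on 6 libraries, 3 from *Robo1*+/+ (gh03, gh09 and gh15) and 3 from *Robo1*-/- mice (gh06, gh12 and gh18), each made from cells of 2 adult animals. All animals were nulliparous littermates from crosses of *Robo1*+/- mice. The *Robo1*-/- animals carry the mutated allele in every tissue, not in the mammary epithelium alone. Cells were sorted by flow cytometry as negative for lineage markers, low for CD24 and positive for CD29 and CD61, and polyadenylated RNA was sequenced. The libraries of a genotype are separate pools of animals, so the spread between them holds animal and technical variation together.

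SOCS proteins are feedback inhibitors of cytokine and hormone receptors that lack a kinase of their own. Prolactin, growth hormone, interferons and the interleukin-6 family activate receptor-bound Janus kinases (JAKs), which phosphorylate STAT transcription factors, and STATs in turn induce *Cish*, *Socs1*, *Socs2* and *Socs3*. Each SOCS protein carries an SH2 domain, which binds phosphotyrosine, and a SOCS box, which recruits elongins B and C and a cullin to mark the bound protein for degradation. SOCS1 and SOCS3 also block the JAK catalytic site through a short kinase inhibitory region. In the mammary gland, prolactin acting through STAT5 drives alveolar development, and loss of SOCS1 or SOCS2 is known to strengthen that signal. SOCS4 to SOCS7 are less dependent on cytokines and have been tied mainly to growth factor and insulin receptors.

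The upstream sequences of the inducible genes are shown because STAT and interferon regulatory factor (IRF) motifs are the known route of their induction. Of the 8 genes, 4 matched the RefSeq promoter table (build GRCm38.p6), whose windows run from 250 bases before to 50 bases after the transcription start: *Cish*, *Socs1*, *Socs3* and *Socs4*. *Socs2*, *Socs5*, *Socs6* and *Socs7* were not matched. Capitals mark matches to TTCNNNGAA, the STAT motif, which reads the same on both strands, and to GAAANNGAAA, an IRF motif, searched on both strands. The windows are chr9:107296409-107296708 (plus strand) for *Cish*, chr16:10785487-10785786 (minus strand) for *Socs1* and chr11:117969317-117969616 (minus strand) for *Socs3*, each written in the direction of transcription.
Cish: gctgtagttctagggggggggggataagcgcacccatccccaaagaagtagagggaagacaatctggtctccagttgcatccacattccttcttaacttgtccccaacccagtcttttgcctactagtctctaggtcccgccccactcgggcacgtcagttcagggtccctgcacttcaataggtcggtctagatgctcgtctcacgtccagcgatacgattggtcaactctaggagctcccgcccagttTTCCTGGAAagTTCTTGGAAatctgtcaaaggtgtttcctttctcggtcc
Socs1: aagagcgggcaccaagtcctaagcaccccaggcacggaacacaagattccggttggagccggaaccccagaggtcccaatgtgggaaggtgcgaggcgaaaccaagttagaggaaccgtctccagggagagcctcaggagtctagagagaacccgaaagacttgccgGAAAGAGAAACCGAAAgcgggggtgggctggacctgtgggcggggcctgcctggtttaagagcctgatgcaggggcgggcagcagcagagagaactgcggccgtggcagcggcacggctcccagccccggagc
Socs3: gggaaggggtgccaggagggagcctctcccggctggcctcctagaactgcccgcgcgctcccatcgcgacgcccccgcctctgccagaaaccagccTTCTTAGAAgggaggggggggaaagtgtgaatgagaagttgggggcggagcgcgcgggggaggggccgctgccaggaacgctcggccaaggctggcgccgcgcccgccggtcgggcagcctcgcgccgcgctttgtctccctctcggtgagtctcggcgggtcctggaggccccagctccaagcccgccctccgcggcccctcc

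The *Cish* window held 2 STAT matches, TTCCTGGAA and TTCTTGGAA, which began at bases 1 and 12 of the transcript. *Socs3* had 1 match, TTCTTAGAA, beginning 154 bases before the start, and *Socs1* and *Socs4* had 0. The *Socs1* window held 2 IRF matches that overlap each other, GAAAGAGAAA and GAAACCGAAA, beginning 83 and 77 bases before the start. Among all 32851 windows of this length, 8.30% held at least 1 STAT match, 0.457% held 2 or more, and 3.44% held at least 1 IRF match. A match describes the letters of the window and does not show that a factor was bound.

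The 6 libraries held between 9727191 and 17433868 reads in genes. *Robo1* itself, the targeted gene, had normalized read counts of 289, 574 and 541 in *Robo1*+/+ libraries against 130.1, 214 and 177 in *Robo1*-/- ones, whose mean was 37.1% as high. *Robo1*-/- library gh18 stood apart from the other 5 in its dependence on GC content: in gh18 the log2 difference between a gene and its average in the remaining libraries decreased with the GC content of its transcript (Spearman's rho = -0.81 across 12453 genes, which are not independent) and increased with it in the others (rho between 0.17 and 0.61). For each of the others that average includes gh18. Their increase is therefore partly set by gh18, and it was not computed without that library. Values are therefore also given without gh18, and after a GC correction that subtracted from each library a smooth curve fitted on GC content. All 8 genes listed as luminal progenitor markers passed the filter on low reads. Among them were *Kit*, *Elf5*, *Aldh1a3* and *Itgb3*, which encodes CD61 and was the only gene of this list used in the sort. The 8 had a summed normalized count of 80156 to 90518 in *Robo1*+/+ and of 40652 (gh18) to 97062 in *Robo1*-/- libraries. The largest counts in each of these sums were those of *Krt8* and *Krt18*. In gh18 they were 11181.5 and 11521.5, against 35984 to 43715 and 28162 to 35214 in the other libraries. *Cd14* was also lowest in gh18 (1605) and *Itga2* highest (1370). The gh18 values of *Kit*, *Elf5*, *Aldh1a3* and *Itgb3* lay within the range of the others. All 8 hormone-sensing luminal markers passed as well, with sums of 34338 to 46292 and of 45591 to 54144. The largest count in each of these sums was that of *Prlr*, at 20097 to 31025 and 26868 to 37136. Of the 8, 3 had a log2 fold change below 0. Among these, *Cited1* and *Wnt4* were at 286 and 4.38 in gh18, against 2702 to 3954 and 213 to 602 in the other libraries. Basal markers (8 of 8 passed) summed to 573 to 1883 and 773 to 1335, and fibroblast markers (5 of 6 passed) to 704 to 832 and 307 to 1039. Leukocyte markers (2 of 8 passed) summed to at most 161, with *Cd3e* not listed and *Ptprc* at 0 in 4 libraries, and endothelial markers (1 of 5 passed) to at most 90.7, with *Emcn* not listed and *Cdh5* at 0 in 4. The part of these other cells in the results below was not tested.

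The 8 genes spanned a wide range of levels. In RPKM (reads scaled to exon length in kilobases and to library size), the mean over the 6 libraries fell from *Socs3* (67.7 ± 35.2, SD, n = 6) through *Socs5* (26.0 ± 9.12), *Cish* (11.9 ± 5.94), *Socs7* (7.91 ± 0.974), *Socs6* (6.70 ± 1.32), *Socs4* (6.08 ± 1.997) and *Socs2* (3.13 ± 1.59) to *Socs1* (1.06 ± 0.698). *Socs3* stood at the 93.9th percentile of the 12689 tested genes that had an annotated length and *Socs1* at the 12.5th. Of the 7 pairs of neighbours in this order, *Socs5* was above *Cish* and *Socs2* above *Socs1* in 6 of 6 libraries (two-sided exact sign-flip permutation test, p = 0.031 for each, the smallest that 6 libraries allow, adjusted p = 0.109 over the 7 pairs). The other 5 pairs kept their order in 5 of 6 libraries (exact p between 0.0625 and 0.531, adjusted p between 0.146 and 0.531). With 6 libraries, 2 pairs at the smallest possible p cannot pass an adjustment over 7, so the adjusted values do not show that neighbours were alike. Library gh18 broke the order in 4 of those 5 pairs: there *Socs5* (42.9) exceeded *Socs3* (12.9), and *Cish* (2.31) ranked 7th in place of 3rd. Without gh18, 6 of the 7 pairs had the same order in all 5 libraries.

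**Figure D1:**
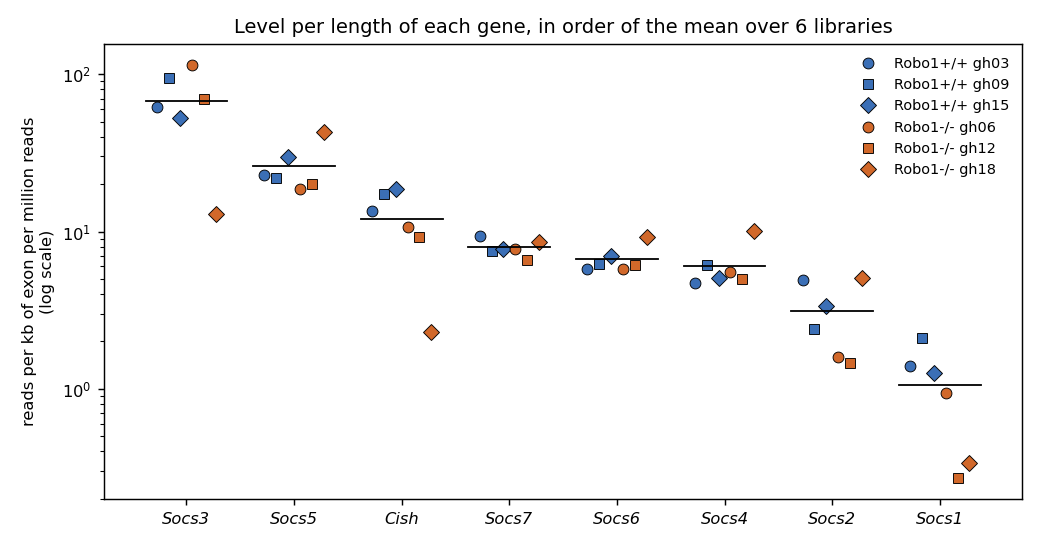
Level of each gene in RPKM, reads scaled to exon length and library size (log axis), with 1 point per library and a line at the mean of 6 libraries. *Socs3* was the highest in 5 libraries and *Socs1* the lowest in all 6, and the gh18 points of *Socs3* and *Cish* lie far below those of the other libraries.

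The order depends on the length used, because the union of all annotated exons is much longer than the longest coding transcript for *Cish* (6419 against 2850 bases) and *Socs2* (9532 against 4244). Per kilobase of the longest coding transcript, *Cish* came second with 26.9 ± 13.4 (SD, n = 6), next to *Socs5* with 26.0, and *Socs2* sixth with 7.03 ± 3.58. The order of *Socs5* above *Cish* in 6 of 6 libraries therefore held for the union of exons only. By the longest coding transcript and by coding length, *Cish* was above *Socs5* in 5 of 6 libraries. The mean log2 ratio of *Cish* to *Socs5* was then -0.14 and 0.29. *Socs3* stayed first and *Socs1* last by either length and by coding length alone.

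With all 6 libraries, the inducible genes varied the most between libraries of 1 genotype. The standard deviation of log2 values within a genotype was 1.20 for *Socs3*, 0.87 for *Cish*, 0.80 for *Socs2* and 0.67 for *Socs1*, which are the 92.7th, 83.6th, 80.4th and 73.2nd percentiles of all tested genes. It was 0.51 for *Socs5* and 0.42 for *Socs4*, near the middle of all genes, and 0.28 for *Socs6* and 0.19 for *Socs7*, at the 25.2nd and 9.84th percentiles. After the GC correction the standard deviation of *Cish* fell to 0.32 and that of *Socs3* to 0.46, below or near those of *Socs5* (0.41) and *Socs7* (0.43). Those of *Socs2* and *Socs1* were 0.62 and 1.09, above these. Without gh18 it was 0.22 for *Cish*, 0.47 for *Socs3*, 0.41 for *Socs2* and 0.73 for *Socs1*, against 0.12 to 0.19 for *Socs4* to *Socs7*.

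*Cish* encodes CIS, which competes with STAT5 for docking sites on activated receptors. It lies on chromosome 9 of NCBIM37 from 107198357 to 107205115 (kgCluster27114), and 740 bases of its exons overlap exons of *Gm17040* and *Gm17041*, noncoding genes on the other strand, whose reads cannot be told apart from its own here. Its normalized read counts, which are reads divided by 1 size factor per library, were 1165, 1513 and 1600.4 in *Robo1*+/+ libraries (gh03, gh09, gh15), against 955, 829 and 210.1 in the *Robo1*-/- ones (gh06, gh12, gh18, the order used throughout). The genotypes did not overlap, and gh18 lay far below the rest. The *Robo1*-/- mean was 46.6% of the *Robo1*+/+ mean, or -1.36 ± 0.57 as a log2 fold change (± gives limma's standard error for these, here and below). In bulk RNA of sorted cells, fewer cells that express a gene and less of its RNA per cell cannot be told apart. Without gh18 the *Robo1*-/- mean was 62.6% of that of *Robo1*+/+, a log2 fold change of -0.67 ± 0.18. With the GC correction it was -0.86 ± 0.23, with corrected values of 1026, 1201 and 1319 against 785, 740.4 and 467, again without overlap. *Cish* was lower under all 16 settings tried, with a log2 fold change between -1.76 and -0.63.

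*Socs1* encodes a direct JAK inhibitor that also restrains interferon signaling, and it is the least expressed of the 8 genes. It lies on chromosome 16 from 10783901 to 10785629 (kgCluster9223), and the GC content of its transcript, 63.6%, exceeds that of 99.1% of the genes with a known one. It had normalized read counts of 22.9, 35.3 and 20.6 in *Robo1*+/+ cells, against 16.1, 4.58 and 5.84. The genotypes did not overlap, but these values rest on 18, 45 and 22 reads against 14, 5 and 4. The 95% Poisson interval of the 5 reads of gh12 spans 1.49 to 10.7 on the normalized scale and that of the 4 reads of gh18 1.59 to 14.9, and that of gh06, from 8.81 to 27.0, includes 2 of the 3 *Robo1*+/+ values. Its log2 fold change was -1.61 ± 0.55, and -1.44 ± 0.58 without gh18. With the GC correction the genotypes overlapped, since the corrected value of gh18 became 38.3, the highest of all 6, and the log2 fold change was -0.48 ± 0.75.

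*Socs2*, best known as the brake on growth hormone signaling and also induced through STAT5, lies on chromosome 10 from 94847996 to 94879814 (kgCluster2497). The *Robo1*+/+ libraries had normalized read counts of 625, 313.5 and 431, the *Robo1*-/- libraries of 212, 192 and 684. The values of gh06 and gh12 lay below every *Robo1*+/+ value, whereas gh18 had the highest value of all 6. With all libraries the log2 fold change was -0.53 ± 0.54. Without gh18 the *Robo1*-/- mean was 44.3% of that of *Robo1*+/+, with a difference of -1.12 ± 0.30 on the log2 scale and no overlap. With the GC correction gh18 remained above 2 of the *Robo1*+/+ libraries, at 494 against 668, 336 and 460.5, and the log2 fold change was -0.74 ± 0.41. It was below 0 under all 16 settings, between -1.15 and -0.20.

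*Socs3* encodes the inhibitor of interleukin-6 family receptors and STAT3, and it had the widest range of the family. It lies on chromosome 11 from 117827393 to 117831361 (kgCluster4653). Normalized read counts of 2401, 3714 and 2030 in *Robo1*+/+ stood against 4663, 2796 and 529.7 in *Robo1*-/- libraries, an 8.80-fold range within which the highest and the lowest value were both *Robo1*-/-. The direction of its genotype difference depended on gh18: the log2 fold change was -0.46 ± 0.76 with all libraries, 0.46 ± 0.32 without gh18 and 0.27 ± 0.31 with the GC correction. Immediate early genes, which rise quickly when tissue is dissociated and which STAT and stress signals also induce, were highest in the same library as *Socs3*. The summed normalized count of 16 such genes (*Fos*, *Jun*, *Egr1*, *Atf3* and others) was 120866, 107796 and 84075 in the *Robo1*+/+ libraries, against 183404 (gh06), 119965 (gh12) and 64477 (gh18). *Junb* and *Zfp36* had the smallest unadjusted p below and above 0, at -0.86 ± 1.19 and 0.33 ± 0.24, with overlapping values, and *Junb* was at 0.48 without gh18. With all 6 libraries 0 of the 16 were higher in *Robo1*-/- cells with no overlap and their median log2 fold change was 0.05. Without gh18, 7 were, where 10.1% of all tested genes were, and the median was 0.49. The part of dissociation in the *Socs3* values was not tested.

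The values of *Socs4*, *Socs5*, *Socs6* and *Socs7* overlapped between the genotypes. *Socs4* (kgCluster7376; chromosome 14 from 47896606 to 47915773) had normalized read counts of 433, 578 and 470.0, against 531, 475 and 978 in *Robo1*-/- libraries. *Socs5* (kgCluster11442; chromosome 17 from 87507019 to 87536923), which like *Socs4* is linked to epidermal growth factor receptor signaling, had 1344, 1322 and 1742 against 1139, 1218 and 2673. *Socs6* (kgCluster12211; chromosome 18 from 88834616 to 89096873), whose protein binds the receptor KIT, had 639, 698 and 773 against 669.8, 703 and 1078. In each of these 3 genes gh18 was the highest library, and the other 2 *Robo1*-/- values were within or below the *Robo1*+/+ range. *Socs7* (kgCluster4137; chromosome 11 from 97223865 to 97259856), tied to insulin signaling, was the steadiest, with 914, 747 and 750.5 against 791, 661 and 879.9. Log2 fold changes were 0.36 ± 0.33, 0.09 ± 0.36, 0.19 ± 0.26 and -0.05 ± 0.22 for *Socs4*, *Socs5*, *Socs6* and *Socs7* in turn. Without gh18 they were 0.04, -0.31, -0.03 and -0.15. *Socs5* then had no overlap, with both remaining *Robo1*-/- values below the *Robo1*+/+ range.

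**Figure D2:**
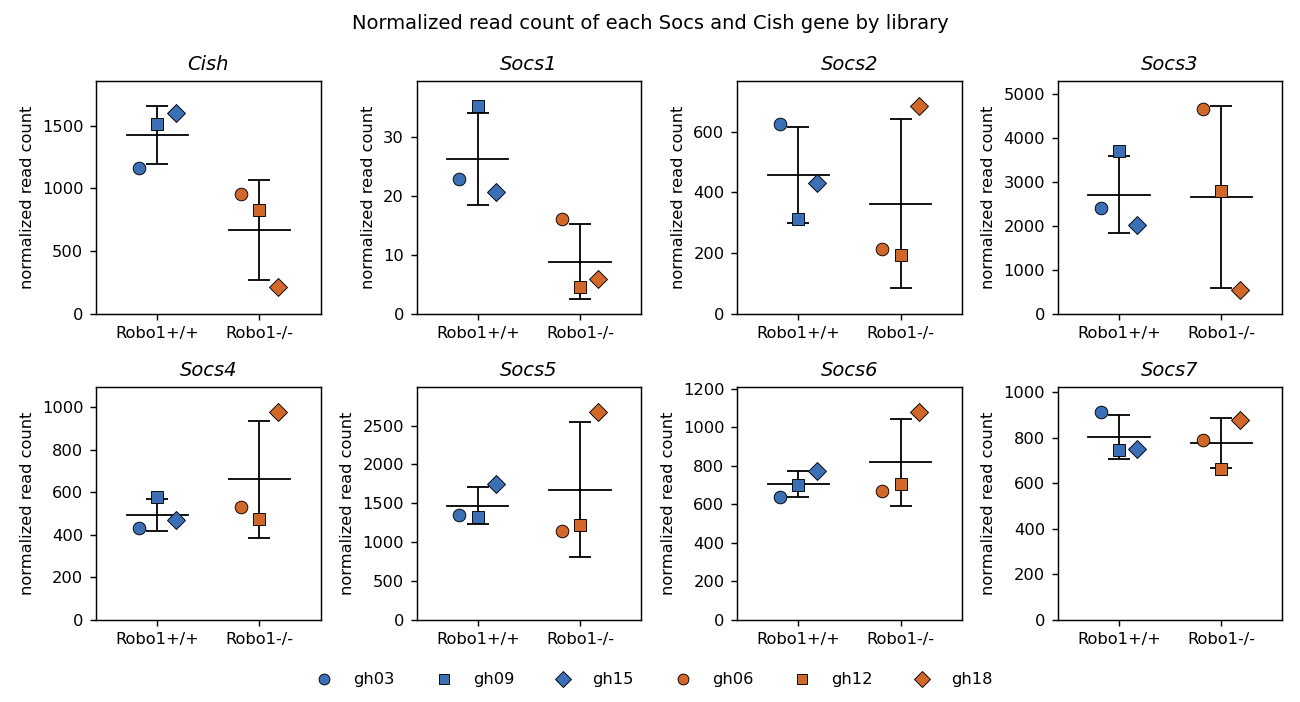
Normalized read count of each gene in the 6 libraries, on linear axes that start at 0, with lines and bars for the mean and SD of the 3 libraries of a genotype. The genotypes of *Cish* and *Socs1* do not overlap, and the gh18 diamond is the lowest point of *Cish* and *Socs3* and the highest of *Socs2*, *Socs4*, *Socs5* and *Socs6*.

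The deviation of gh18 in these genes went with their GC content, a relation whose cause was not tested. In *Socs4*, *Socs6*, *Socs2* and *Socs5*, whose transcripts have a GC content of 38.5%, 39.9%, 45.4% and 48.3%, the log2 value of gh18 lay 0.98, 0.63, 1.09 and 1.00 above the mean of the other 5 libraries. *Socs7*, with 53.8%, lay 0.20 above it. *Cish* (56.4%), *Socs3* (58.7%) and *Socs1* (63.6%) lay 2.48, 2.49 and 1.38 below. The GC correction removed most of this for *Socs4*, *Socs6* and *Socs3* (0.00, -0.27 and -0.47). It left *Cish* at -1.08, *Socs5* at 0.73 and *Socs2* at 0.53. It moved *Socs7* away from 0, to 0.88, and *Socs1* to 1.67.

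**Figure D3:**
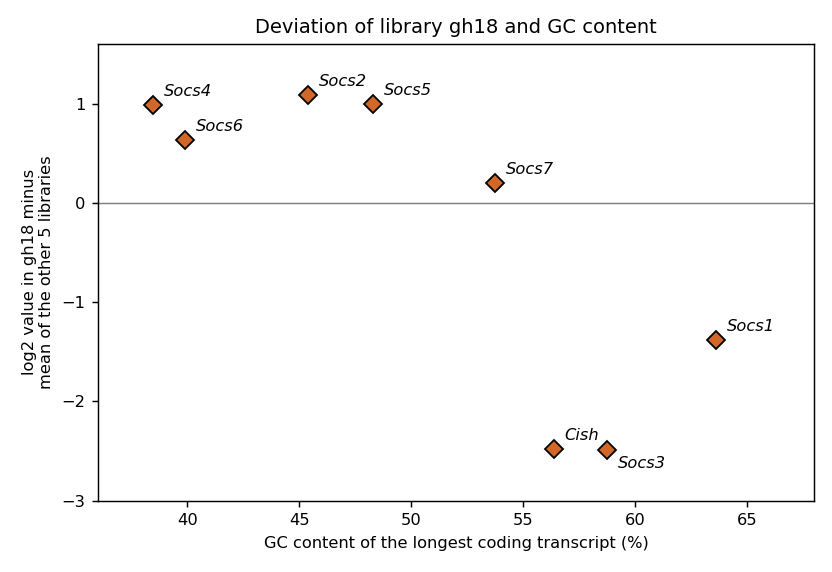
Log2 normalized read count (plus 1) in *Robo1*-/- library gh18 minus the mean of the other 5 libraries, against the GC content of the longest coding transcript, with 1 point per gene. The 4 genes with a GC content up to 48.3% lie at 0.63 or more and the 3 genes above 56% at -1.38 or less.

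Over the family, 2 of 8 genes (*Cish* and *Socs1*) were lower in *Robo1*-/- cells with no overlap, where 4.58% of the 13692 tested genes were, and 0 were higher with no overlap, where 4.83% of the tested genes were. Without gh18 the count was 4 (*Cish*, *Socs1*, *Socs2* and *Socs5*) beside 10% of all tested genes, and with the GC correction it was 1 (*Cish*) beside 3.16%. Nothing is read from these counts, since this contrast led to the choice of the family. The median log2 fold change was -0.26 over the 8 genes and 0.00 over all tested genes. It was -0.23 without gh18, -0.09 with the GC correction and 0.00 when that correction used the mean GC content of all coding transcripts of a gene. In the fit over all 13692 genes with limma, which shares information on spread between genes, 0 genes (0.0%) had an adjusted p under 0.05 after Benjamini-Hochberg adjustment and 231 had an unadjusted p under 0.05. DESeq2 on the recovered reads called 1 gene outside the family (RP23-282C23.3), and edgeR 0 (335 and 221 genes with an unadjusted p under 0.05). The adjusted p of the 8 genes lay between 0.858 and 0.949 from limma, and between 0.555 and 0.999 over all settings.

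**Figure D4:**
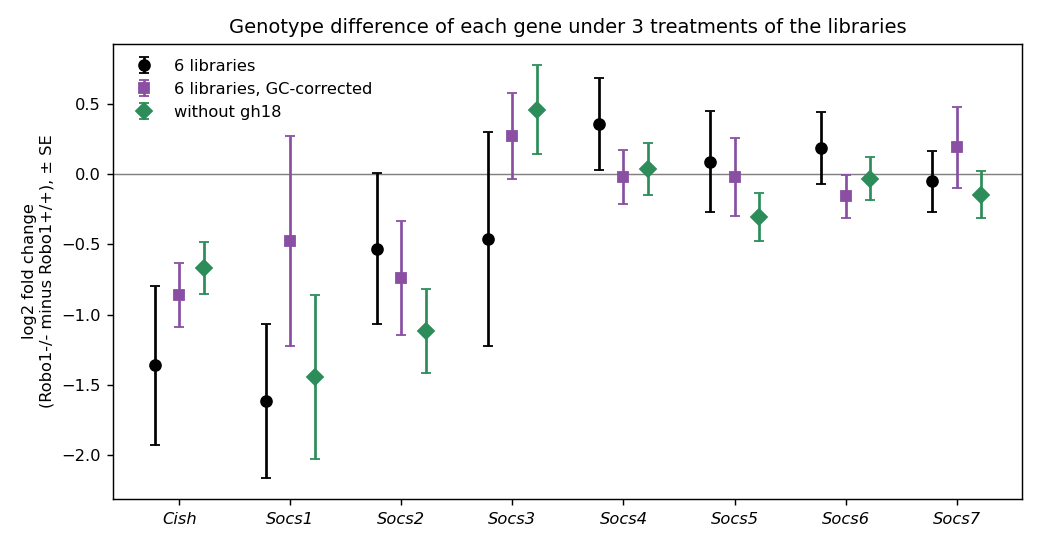
Log2 fold change (*Robo1*-/- minus *Robo1*+/+) with its standard error from limma for each gene, for all 6 libraries, after the GC correction and without gh18. *Cish*, *Socs1* and *Socs2* are below 0 in all 3, and *Socs3* is at -0.46, 0.27 and 0.46.

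Genes of the same pathway were described from lists taken from general knowledge, and limma called 0 of these genes at the same threshold. Of the 16 cytokine receptor genes tested out of 18, 8 had a log2 fold change below 0 and the median was 0.00. *Prlr*, the prolactin receptor, had normalized read counts of 20097 to 31025 in *Robo1*+/+ and 26868 to 37136 in *Robo1*-/- libraries, which overlap, and its log2 fold change was 0.49 ± 0.26, or 0.13 with the GC correction. *Lifr*, the receptor for leukemia inhibitory factor, was the only one of the 16 with no overlap, at 585 to 1274 against 1396 to 1988 (0.71 ± 0.35 on the log2 scale, and 0.47 with the GC correction), and 4.83% of all tested genes were higher in this way. *Il4ra*, an interleukin-4 receptor chain, had the smallest unadjusted p among the receptors below 0, at -1.20 ± 0.52, with overlapping values, and it was at -0.62 without gh18. With all 6 libraries, the receptors as a group showed no common direction. Without gh18 their median was -0.08. Of the 16, 3 were then lower with no overlap, beside 10% of all tested genes, and 1 was higher, beside 10.1%.

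All 11 JAK and STAT genes were tested, and 8 had a log2 fold change below 0, with a median of -0.32 that became -0.04 without gh18 and -0.09 with the GC correction. *Stat3* was the one with no overlap, at 12216.5 to 12688 in *Robo1*+/+ and 7982 to 11003.5 in *Robo1*-/- libraries (-0.33 ± 0.21, and -0.17 without gh18), where 4.58% of all tested genes were lower in this way. *Stat5a* and *Stat5b*, which carry the prolactin signal, were at -0.61 ± 0.43 and -0.32 ± 0.36, and at -0.18 and 0.07 without gh18. *Jak2*, the kinase of the prolactin receptor, was at 0.17 ± 0.34, and at -0.20 without gh18 and -0.07 with the GC correction.

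Partners turn a SOCS box into a ubiquitin ligase. Of 7 tested genes out of 8 (*Ube2f* has more than 1 cluster and was left out), 2 were below 0 and the median was 0.05. The median was -0.03 without gh18 and -0.13 with the GC correction. *Cul5*, the cullin of the complex, was at 0.37 ± 0.35 and at -0.01 without gh18. *Tceb2*, which encodes elongin B, was at -1.47 ± 0.93 with a normalized read count of 32.1 in gh18. It was at -0.33 without gh18 and at -1.08 with the GC correction. Among the 10 other inhibitors of JAK-STAT signaling, 6 were below 0, with a median of -0.17 that became -0.0034 without gh18 and 0.02 with the GC correction. *Pias1*, a SUMO ligase that restrains STAT signaling, was the 1 gene higher with no overlap (0.25 ± 0.22, but 0.10 without gh18 and 0.02 with the GC correction), beside 4.83% of all tested genes, and *Pias4* had the smallest unadjusted p below 0 (-1.33 ± 0.95, and -0.12 without gh18).

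With all 6 libraries, other STAT target genes showed no common direction. Of 13 tested out of 14, 7 were below 0 and the median was -0.01 (0.05 without gh18 and 0.21 with the GC correction). *Akt1* was the one with no overlap, at 2909 to 3209 in *Robo1*+/+ and 508 to 2865 in *Robo1*-/- libraries (-1.02 ± 0.62, and -0.23 without gh18), beside 4.58% of all tested genes. *Bcl3* had the smallest unadjusted p below 0, at -1.09 ± 0.64 (-0.30 without gh18 and -0.03 with the GC correction), and *Igfbp5*, a STAT3 target of involution, the smallest above 0, at 0.59 ± 0.31. Without gh18, 1 of the 13 was lower with no overlap, beside 10% of all tested genes, and 2 were higher, beside 10.1%. Milk genes, which prolactin and STAT5 induce, went both ways. Of 7 tested out of 8, 5 were below 0 with a median of -0.55 (-0.82 without gh18), and 2, *Csn3* and *Lalba*, were higher in *Robo1*-/- cells with no overlap, beside 4.83% of all tested genes. The caseins *Csn2*, *Csn1s2a* and *Csn1s1* were at -1.77 ± 1.24, -0.97 ± 0.84 and -0.55 ± 0.95 with overlapping values. Without gh18 they were at -2.96, -1.69 and -1.43, and *Csn2* and *Csn1s2a* were then lower with no overlap, beside 10% of all tested genes. *Csn2* ranged from 1139 to 13697.5 in *Robo1*+/+ libraries, against 674, 303 and 5456. *Wap*, which encodes whey acidic protein, had the smallest unadjusted p below 0, at -0.81 ± 0.55 with at most 20.4 normalized reads in a library. *Csn3*, which encodes kappa-casein, had 7755 to 9771 in *Robo1*+/+ and 11375.5 to 19142 in *Robo1*-/- libraries (0.85 ± 0.25, and 0.45 with the GC correction). *Lalba*, which encodes alpha-lactalbumin, had 1323 to 1748 and 2044 to 3119 (0.79 ± 0.24). Interferon-stimulated genes were listed because *Socs1* restrains and responds to interferon. Of 13 tested, 2 were below 0 and the median was 0.33 (0.57 without gh18 and 0.48 with the GC correction). None of the 13 was free of overlap with all 6 libraries. Without gh18, 2 were higher with no overlap, beside 10.1% of all tested genes, and 0 were lower, beside 10%. *Ifit1* and *Isg15* had the smallest unadjusted p above and below 0, at 1.21 ± 0.59 and -0.07 ± 0.71, the second 0.68 without gh18.

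The genes whose profile over the 6 libraries was nearest to those of the inducible members were found by the root mean square difference of centred log2 values. For *Cish* these were *Ercc1* (0.084), *Rtkn* (0.13) and *Kcnab2* (0.13), with *Ercc1* at 309 to 442 in *Robo1*+/+ and at 255.5, 243 and 52.5 in gh06, gh12 and gh18. *Nacad* (0.26), *Il4i1* (0.34) and *Rrad* (0.36) were nearest to *Socs1*, and *Wnk2* (0.17), *Tha1* (0.17) and AK005635 (0.17) to *Socs3*. *Tha1* is the cluster numbered next to *Socs3* (kgCluster4652) and ends 92598 bases away from it on chromosome 11. The transcripts of all of these genes that could be matched have a GC content between 57.6% and 62.4%. For *Socs2* the nearest were *Il23a* (0.067), *Cd47* (0.10) and *Abcg2* (0.15), with a GC content of 48.8%, 42.5% and 42.8%. *Il23a*, a subunit of the cytokine interleukin-23, had 179, 94.1 and 134, against 62.2, 55.0 and 184 in *Robo1*-/- libraries, the same order of libraries as *Socs2*.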

How the data were processed

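Luminal progenitor cells were compared between 3 *Robo1*+/+ and 3 *Robo1*-/- libraries, grouped by the genotype in their labels. What the authors deposited is a normalized signal, the reads of each known-gene cluster over a size factor of the library. Reads had been trimmed to 75 bases, filtered against repeats with bowtie2, aligned by TopHat (NCBI37/mm9) and scaled by DESeq2 (DESeq per the labels). The counting tool and its use of strand are not given in the sources used here. Every value was a whole multiple of the value of 1 read within rounding (0.005), which gave back whole reads (100% of the values in each library). Intervals cover counting error only, since reads are not independent molecules.

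The genotypes were compared as log2(value + 1) with limma (version 3.58.1, R 4.3.3), using a mean-variance trend, and p-values were adjusted by Benjamini-Hochberg over the 13692 genes kept by filterByExpr of edgeR (version 4.0.16). Fold changes are on that scale, which understates the change of low genes. DESeq2 (version 1.42.0) and edgeR on the recovered reads were alternatives, with TMM scaling, pseudocounts of 0.5 and 5, no filter, a GC correction (lowess, fraction 0.3) and each library left out. Levels per length used the union of exons in GENCODE M1 (NCBIM37), in which 88.6% of symbols were found. Promoters are from RefSeq. The members, lists and tests were chosen with earlier results of these data known. The genes named are the 8 members, in each pathway list the tested gene with the smallest unadjusted p in each direction, genes described by role in lists of up to 11, and the 3 genes (average of 10 or more) nearest in profile to *Cish*, *Socs1*, *Socs2* and *Socs3*. *Akt1*, *Prlr*, *Pgr*, *Tnfsf11*, *Wnt4*, *Cited1*, *Krt8*, *Krt18*, *Cd14*, *Itga2*, *Ptprc* and *Cdh5* were named after their values were seen. Some genes that this rule or the lists hold are not reported here. The scripts were tested on simulated data.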

Additional observations from a re-analysis of the deposited data

How the results depend on the processing

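No paired analysis was possible because the labels give the 2 genotypes no shared replicate number. The number of genes with an adjusted p under 0.05 was 0 under every setting except DESeq2, which called 1. The number with an unadjusted p under 0.05, 231 in the reported fit, was 415 with no filter on low values, 564 with a GC correction fitted without gh18 and between 117 (without gh15) and 903 (without gh06) with each library left out. The count of family members lower with no overlap, 2 as reported, was 1 with either GC correction, 4 with the GC correction fitted without gh18 and between 2 and 4 with each library left out. The share of all tested genes lower in this way was 4.58% with 6 libraries, 3.16% with the first GC correction and 10% without gh18, where the count was 4. It rose when a library was left out, and for the other settings it was not computed. The count of members higher with no overlap was 0, and between 0 and 1 with each library left out: without gh09 it was 1 (*Socs4*). Of all tested genes, 4.83% were higher in this way with 6 libraries and 10.1% without gh18, and the share without gh09 was not computed. The number of neighbouring pairs in 1 order in all libraries was 2, 3 with the longest transcript, 2 with coding length and between 2 and 6 with each library left out. The other lengths change which genes are neighbours, so these counts are of different pairs. Neither *Socs5* above *Cish* nor *Socs2* above *Socs1* was among those counted by the longest transcript or by coding length. *Socs3*, *Socs4*, *Socs5*, *Socs6* and *Socs7* changed sign under at least 1 setting: *Socs3* was between -1.11 and 0.54, and it was -0.03 with DESeq2 against -0.46 as reported. *Cish*, *Socs1* and *Socs2* were below 0 under all 16. The GC corrections with the mean of all transcripts or without gh18 were chosen after seeing the data. The causes were not tested. Depth limits *Socs1*, with at most 45 reads in a library.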

Other observations

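With GC-corrected values, the genes nearest in profile to *Cish* were *Dnajb13* (root mean square difference 0.069), *Trp53i11* (0.12) and *Ercc1* (0.14), of which *Ercc1* was also among the 3 nearest without the correction. For *Socs2* they were *Il23a* (0.089), *Sept5* (0.13) and *Cd47* (0.14), of which *Il23a* and *Cd47*, a cell surface ligand, were shared with the uncorrected values. *Socs1* was nearest to *Sp6* (0.27), *Glipr2* (0.29) and *Nfkbie* (0.32), which encodes an inhibitor of NF-kappaB, and *Socs3* to *Zfp661* (0.10), *Xkrx* (0.11) and *Ttll10* (0.11), and neither gene kept a neighbour from the uncorrected values. Distances are descriptions over 6 libraries, and the candidates were 12379 genes with a GC value.

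Among the hormone-sensing luminal markers, *Pgr*, the progesterone receptor, was higher in *Robo1*-/- cells with no overlap, at 1721 to 3394 in *Robo1*+/+ and 3751.5 to 5481 in *Robo1*-/- libraries. The difference was 0.76 ± 0.31 (SE) on the log2 scale, limma's adjusted p = 0.858, and 1.23 with the GC correction. It was the only one of the 8 such markers with no overlap over all 6 libraries, beside 4.83% of all tested genes higher in this way. Of the 8, 3 were below 0: *Tnfsf11* at -2.94 ± 1.99, *Wnt4* at -2.60 ± 1.53 and *Cited1* at -1.01 ± 0.94. Without gh18 these were at -4.58, -0.65 and 0.20. *Tnfsf11* was then the 1 marker lower with no overlap, beside 10% of all tested genes. Its normalized read counts were 1660, 199 and 124 in *Robo1*+/+ libraries, against 108 (gh06), 0.92 (gh12) and 439 (gh18). The gh12 value is that of 1 read, and the gh03 value of 1660 was far above the rest. The median of the 8 was 0.15 with all libraries.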
